A study of Mus musculus with 2 samples.

Results

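The interleukin-1 ligands Il1a and Il1b and the antagonist Il1rn were followed through skin leukocytes of young mice. These 3 genes were taken by symbol from the 32285 genes of the count matrices, and all 3 were present once. The study injected C57BL/6 wild-type mice every other day between postnatal days 4 and 14, with an anti-Gr-1 antibody that was meant to deplete monocytes or with its isotype control, and took skin on day 15. Live CD45+ cells, that is leukocytes, were sorted from collagenase-digested skin of 4 to 7 pooled mice per treatment and sequenced as 1 single-cell library each, named control and anti-Gr-1 here. Each treatment is therefore 1 sample, no difference between the treatments has a replicate check, and no test was made. The 95% intervals below cover counting error only.

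Interleukin-1 alpha and interleukin-1 beta are cytokines that start inflammation through the same receptor, Il1r1 paired with Il1rap. The beta form is made as an inactive precursor that caspase-1 cuts in the inflammasome, whereas the precursor of the alpha form is already active and acts as an alarm signal when a cell is damaged. Il1rn encodes the receptor antagonist, which occupies Il1r1 without recruiting Il1rap. In skin, this axis is known for its part in neutrophil recruitment and in type 17 inflammation.

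All 3 genes lie on mouse chromosome 2 in build mm10. Il1a (ENSMUSG00000027399) spans 129299610 to 129309972 and Il1b (ENSMUSG00000027398) spans 129364570 to 129371139, both on the minus strand with 7 exons, and 54.6 kb separate them. Il1rn (ENSMUSG00000026981) is on the plus strand at 24336853 to 24351494, far from the ligands, with up to 5 exons in 6 annotated transcripts. RefSeq promoter sequences on GRCm38.p6 were found for all 3 genes. The 250 bases before the transcript start follow for each ligand and for an upstream and a downstream start of Il1rn, because the ligands and the antagonist were found in the same cells in unequal amounts. Capitals mark matches, on either strand, to a TATA box (TATAAA), an AP-1 site (TGANTCA), a PU.1-type site (GAGGAA), a C/EBP-type site (TTGCNNAA) or the kB consensus.
Il1a, chr2:129309973-129310222, minus strand: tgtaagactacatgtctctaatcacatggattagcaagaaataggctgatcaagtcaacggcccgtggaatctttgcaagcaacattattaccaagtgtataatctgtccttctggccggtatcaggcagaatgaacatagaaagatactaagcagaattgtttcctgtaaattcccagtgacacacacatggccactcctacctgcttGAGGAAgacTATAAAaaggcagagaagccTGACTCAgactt
Il1b, chr2:129371140-129371389, minus strand: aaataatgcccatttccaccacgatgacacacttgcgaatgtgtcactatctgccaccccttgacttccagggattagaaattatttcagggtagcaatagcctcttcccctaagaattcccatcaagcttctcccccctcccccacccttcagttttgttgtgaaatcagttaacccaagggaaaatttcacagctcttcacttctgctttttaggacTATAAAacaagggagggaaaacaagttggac
Il1rn upstream start, chr2:24336610-24336859, plus strand: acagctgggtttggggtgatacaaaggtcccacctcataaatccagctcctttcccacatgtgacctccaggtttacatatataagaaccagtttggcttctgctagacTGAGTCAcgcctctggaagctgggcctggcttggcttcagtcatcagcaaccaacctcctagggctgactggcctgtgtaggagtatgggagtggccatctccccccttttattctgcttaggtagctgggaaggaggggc
Il1rn downstream start, chr2:24345041-24345290, plus strand: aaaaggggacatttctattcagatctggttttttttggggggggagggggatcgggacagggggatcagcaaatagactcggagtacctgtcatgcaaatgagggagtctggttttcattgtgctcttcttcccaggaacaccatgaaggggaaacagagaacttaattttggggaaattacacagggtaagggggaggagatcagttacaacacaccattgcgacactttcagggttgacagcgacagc
Both ligand promoters held TATAAA, which ended 27 bases before the start in Il1a and 26 bases before it in Il1b. This motif was present in 12.4% of all 32817 RefSeq promoter windows of the same length. The Il1a window also held a PU.1-type GAGGAA (23.2% of windows) and an AP-1 match, TGACTCA (6.75%). The upstream Il1rn window held an AP-1 match, TGAGTCA, and no TATAAA. The letters of the C/EBP-type site (9.57% of windows) and of the kB consensus (3.90%) were in none of these windows. The downstream window held none of the motifs. These are matches of letters only. The libraries count the 3′ end of transcripts, so they do not show which Il1rn start was used.

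Filtering left 16487 control cells, which held 103150318 unique molecular identifiers (UMIs, each marking a captured transcript), and 7579 anti-Gr-1 cells, which held 74799281, at medians of 5081 and 7908 UMIs per cell. 61 barcode sequences occurred in both libraries. Cells were assigned to 13 myeloid gates by how many marker genes had a UMI, without use of the 3 genes, and a gate is called "-like" after its markers. Myeloid gates held 4446 and 2472 cells. There were 136 neutrophil-like cells in the control against 4 in the anti-Gr-1 library, and 175 against 21 classical monocyte-like cells. Of marker genes that their own gate did not use, F13a1 was found in 97.2% and 96.1% of resident macrophage-like cells, Ccr2 in 88.0% and 85.7% of classical monocyte-like cells, and Batf3 in 73.9% and 81.0% of type 1 dendritic cell-like cells. The shares of other unused markers varied widely. In type 2 dendritic cell-like cells the shares were 48.9% and 55.9% for Irf4 and 3.40% and 5.41% for Ccl17. Hapln3 was found in 11.5% and 20.3% of Langerhans cell-like cells, and F13a1 in 58.3% and 38.1% of classical monocyte-like cells. Mast cell-like cells had Gata2 in 78.7% and 96.6%, Ms4a2 in 56.0% and 87.9%, and Fcer1a in 6.50% and 5.62%. In control neutrophil-like cells, Hdc was found in 70.6%, Lcn2 in 15.4% and Ly6g, part of the Gr-1 antigen and a defining neutrophil gene, in 2.94%. The T cell-like gate (7460 and 3689 cells) served as the measure of UMIs that do not come from the gated cell type. Myeloid gates allowed at most 1 of the genes Cd3e, Cd3g, Cd3d and Trdc, whereas the T cell-like gate excluded no myeloid markers. Barcodes that mix a T cell and a myeloid cell could thus fall into it, so its level is not that of free RNA alone. Of its cells, 30.6% (control) and 14.8% (anti-Gr-1) had an Il1b UMI, and 6.98% and 2.79% an Il1rn UMI, at medians of 4797 and 6797 UMIs. Single T cell-like barcodes held up to 210 and 219 Il1b UMIs. This background was higher in the control library, where doublets were also removed by another rule, and its ratio is given beside the differences between the libraries. Levels are UMIs of the gene per 1000000 UMIs of the gate (CPM), and are not scaled to gene length because the libraries read 3′ ends.

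Il1b was the dominant ligand transcript, with 124158 control and 71333 anti-Gr-1 UMIs. Type 2 dendritic cell-like cells (Cd209a, Mgl2, Clec10a and related markers), which prime helper T cells, held 48.7% and 68.2% of them. Their level was 3214 CPM over 1704 control cells and 3152 CPM over 980 anti-Gr-1 cells. Neutrophil-like cells, short-lived granulocytes, stood higher at 6676 CPM in the control, and at 5539.7 CPM in the 4 anti-Gr-1 cells. Classical monocyte-like cells, which enter tissue from blood, were at 3121 CPM in the control, where their interval (3024 to 3220) overlapped that of type 2 dendritic cell-like cells (3188 to 3240). The 21 such cells of the anti-Gr-1 library were at 1458 CPM.

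Below these came C1q macrophage-like cells, at 1799.8 and 1316 CPM (control first here and below), and basophil-like cells, at 1592 and 2869 CPM in only 35 and 28 cells. In the control these neighbours overlapped in their intervals. Non-classical monocyte-like cells, which patrol vessels, had 1236 and 1112 CPM. The Retnla Lpl Fn1 phagocytes had 1015 and 672 CPM. They were gated by UMIs of all 3 genes Retnla, Lpl and Fn1, of Ear2 and of Lyz2, and of fewer than 2 of the C1q genes. Resident macrophage-like cells (Lyve1, Folr2) had 546 and 337 CPM, and mature migratory dendritic cell-like cells 513 and 765 CPM. The resident and mature intervals overlapped in the control. Type 1 dendritic cell-like cells (Xcr1, Clec9a), which present antigen to CD8 T cells, had 411 and 367 CPM. In the control their interval (392 to 430 CPM) included the T cell-like background, 428 CPM, whereas in the anti-Gr-1 library that background was 187 CPM. Langerhans cell-like cells (97.6 and 173 CPM) and mast cell-like cells (197 and 17.1 CPM) were below or near the background of their library.

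**Figure D1:**
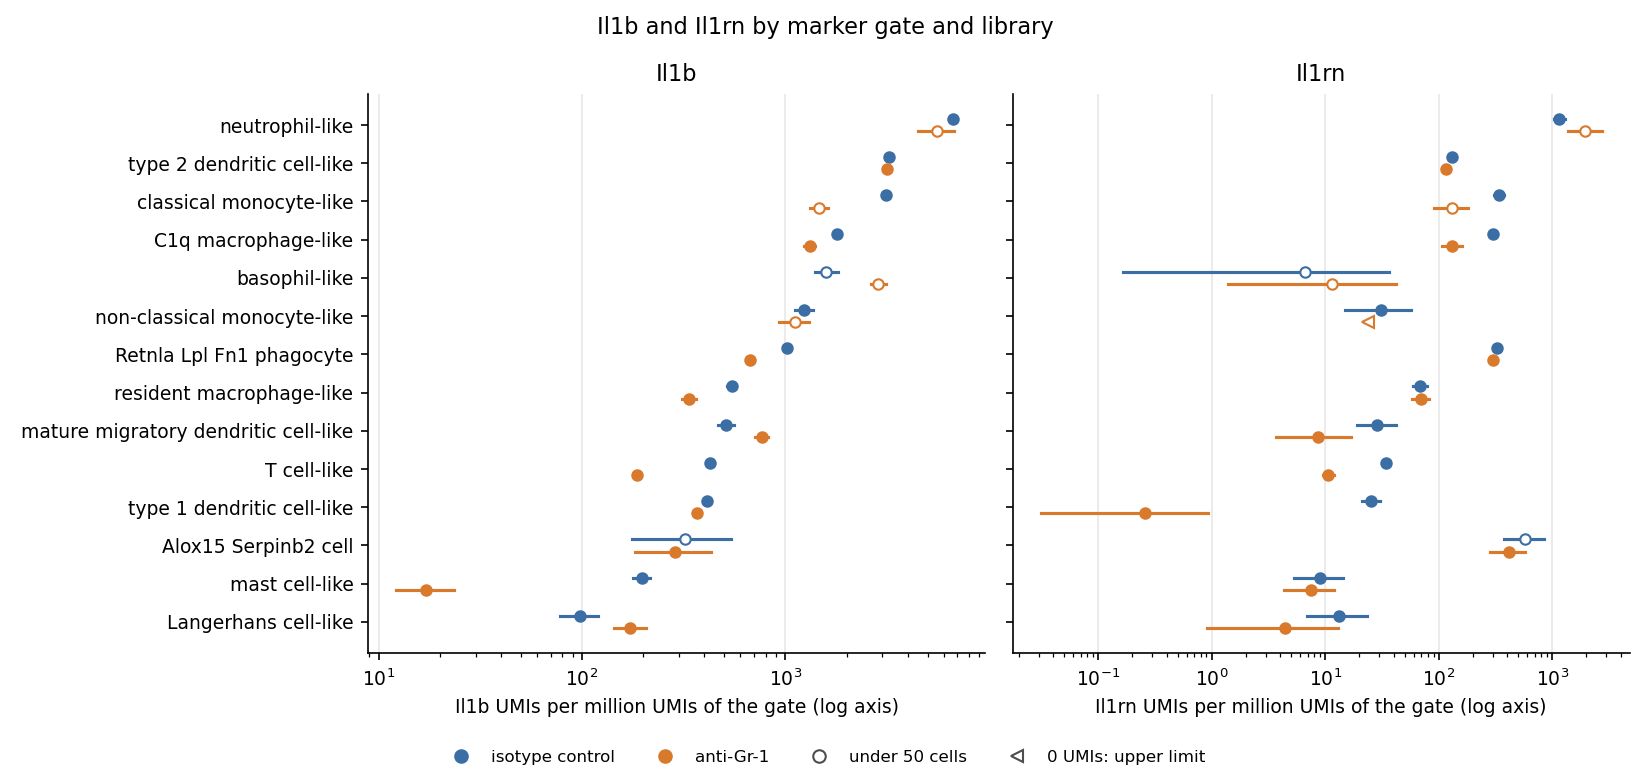
Il1b (left) and Il1rn (right) in CPM of each marker gate, on log axes, for the control (blue) and anti-Gr-1 (orange) libraries, with 95% Poisson intervals. Open points have under 50 cells, and the triangle is the limit allowed by 0 UMIs. Il1b is highest in neutrophil-like cells (6676 CPM in the control), whereas Il1rn in Retnla Lpl Fn1 phagocytes (327 and 300.4 CPM) stands above that in type 2 dendritic cell-like cells (131 and 116 CPM).

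Il1b was spread unevenly between cells of a gate. In type 2 dendritic cell-like cells, at least 10 Il1b UMIs were found in 60.3% of control cells and 65.3% of anti-Gr-1 cells, and the highest cells had 256 and 335. The 10% of cells with the most Il1b held 37.1% and 36.1% of the UMIs of the gate. Fewer Retnla Lpl Fn1 phagocytes were that high, 26.6% and 27.5%, with 215 and 180 UMIs in the highest cells, and the top 10% held 59.9% and 61.0%. In resident macrophage-like cells the top 10% held 85.2% and 89.9%. Most of the Il1b of that gate thus lay in few cells, and the median over its cells with any UMI was 2 and 1.

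Il1a was rare, with 283 UMIs spread over 119 control cells and 70 over 40 anti-Gr-1 cells. Of those cells, 81 and 29 had a single UMI. Neutrophil-like cells had the highest level, 189 CPM from 53 UMIs in 10 of 136 control cells, and the 4 anti-Gr-1 cells had none. In that gate the top cell held 23 Il1a and 85 Il1b UMIs and no Il1rn. All 10 of these cells also had Il1b and 7 had Il1rn. Retnla Lpl Fn1 phagocytes had 35 UMIs in 11 cells and 25 UMIs in 8 cells, and were the only one of these gates above 20 UMIs in both libraries. This corresponds to 8.88 and 9.62 CPM. The top phagocyte of each library held 13 and 8 of these UMIs, and 22 and 17 were left without it. The anti-Gr-1 count thus passed 20 through 1 cell. With cells thinned to equal depth, as described below, only 1 of 301 and 2 of 149 phagocytes had Il1a. Type 2 dendritic cell-like cells had 22 and 16 UMIs, or 1.17 and 1.04 CPM, mostly as single UMIs. Of C1q macrophage-like cells, 8 from the control held 16 UMIs and the 62 from the anti-Gr-1 library held 0, where a count of 0 allows up to 4.34 CPM. Apart from type 1 dendritic cell-like cells, described next, the other myeloid gates had at most 6 Il1a UMIs in a library. Resident macrophage-like cells had 4 and 6, mast cell-like cells 4 and 0, classical monocyte-like cells 3 and 1, and Langerhans cell-like cells 1 and 2. Non-classical monocyte-like and mature dendritic cell-like cells had 1 and 0 each, and basophil-like cells 0 and 0. A count of 0 in these gates allows between 1.32 and 24.0 CPM. In the shallow Alox15 Serpinb2 cells, 2 and 1 UMIs gave 46.0 CPM (5.57 to 166) and 12.5 CPM (0.316 to 69.5).

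Cells with Il1a usually had Il1b too. Over all kept cells, 95 of 119 control cells with Il1a (79.8%, 71.5 to 86.6%) had an Il1b UMI, against 44.2% of the other cells. In the anti-Gr-1 library the shares were 26 of 40 cells (65.0%, 48.3 to 79.4%) and 30.1%. The cells with Il1a were also deeper, with medians of 9281 and 16786 UMIs against 5070 and 7886, and the part of depth in the shares was not tested here. Among Retnla Lpl Fn1 phagocytes with Il1a, 9 of 11 and 5 of 8 cells had all 3 genes. In type 1 dendritic cell-like cells, 33 of the 34 Il1a UMIs of the control came from 1 cell. That cell, with 23281 UMIs in all, also held 182 Il1b and 92 Il1rn UMIs.

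The antagonist Il1rn had 9645 control and 3958 anti-Gr-1 UMIs, and its order over the gates differed from that of Il1b. Neutrophil-like cells again led, at 1157 CPM in the control and 1958 CPM in 4 anti-Gr-1 cells, 24 of whose 35 UMIs came from 1 cell. The gate defined by Alox15 and Serpinb2 came next, at 575 CPM in 43 cells and 412 CPM in 78 cells, with intervals of 372 to 848 and 283 to 578. These cells had medians of only 950 and 895.5 UMIs, so they are called by their genes alone. Of eosinophil markers that the gate did not use, Ccr3 was found in 34.9% and 34.6% and Siglecf in 20.9% and 10.3%. Prg2 was found in 9.30% and 10.3% and Ear6 in 2.33% and 2.56%, whereas Epx and Ear1 had no UMI. Retnla Lpl Fn1 phagocytes were at 327 and 300.4 CPM, which made them the highest of the gates with at least 50 cells in both libraries. Although they were 1.94% and 1.97% of the kept cells, they held 13.4% and 19.7% of all Il1rn UMIs. Part of this gap is depth, since their medians were 12309 and 17018 UMIs against 5081 and 7908 over all kept cells.

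Classical monocyte-like cells had Il1rn at 340.0 and 129.8 CPM, and C1q macrophage-like cells at 299 and 132 CPM. In the control the intervals of these gates and of the phagocytes overlapped. In the anti-Gr-1 library the CPM intervals of the phagocytes stood apart, at 279.7 to 322 CPM against 89.9 to 181 and 106 to 162 CPM. By share of cells the separation was not resolved. With cells thinned to equal depth, as described below, Il1rn was found in 28.2% (21.1 to 36.1%) of 149 phagocytes. The shares were 14.3% (3.05 to 36.3%) of 21 classical monocyte-like cells and 18.0% (9.36 to 30.0%) of 61 C1q macrophage-like cells. Both intervals overlapped that of the phagocytes. Type 2 dendritic cell-like cells had 131 and 116 CPM, and resident macrophage-like cells 68.2 and 69.2 CPM. All other gates were at or below the T cell-like background of 34.6 CPM in the control. These included non-classical monocyte-like cells, with 10 UMIs in 68 cells and 0 in 20 cells, where 0 allows up to 24.0 CPM. Type 1 dendritic cell-like cells had 113 Il1rn UMIs in 356 control cells, 92 of them in the single cell described above, and 2 UMIs in 447 anti-Gr-1 cells. Without that cell the control level was 4.76 CPM instead of 25.5 CPM, and the anti-Gr-1 level was 0.258 CPM (0.0312 to 0.930), below its T cell-like background of 10.6 CPM.

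The balance of ligand and antagonist was described by the number of Il1b UMIs per Il1rn UMI. It was 3.10 (2.91 to 3.30) in control and 2.24 (2.06 to 2.44) in anti-Gr-1 Retnla Lpl Fn1 phagocytes. In type 2 dendritic cell-like cells it was 24.6 (23.6 to 25.6) and 27.2 (25.9 to 28.5). The T cell-like gate was at 12.4 and 17.5. Free RNA from 1 source would have the same ratio in every gate. However, T cell-like Il1b was uneven, with 89.9% and 96.7% of its UMIs in the top 10% of cells. At least 10 Il1b UMIs were found in 359 and 69 T cell-like cells, and the part of mixed barcodes in this ratio was not tested. The phagocytes were below the T cell-like ratio and the type 2 dendritic cell-like cells above it, in both libraries. Neutrophil-like cells were at 5.77 and 2.83, C1q macrophage-like cells at 6.02 and 10.0, resident macrophage-like cells at 8.0 and 4.87, and classical monocyte-like cells at 9.18 and 11.2. All of these were below the T cell-like ratio of their library, although the anti-Gr-1 monocyte interval (7.90 to 16.5) overlapped that of the T cell-like cells (15.6 to 19.8).

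The extremes lay elsewhere. Alox15 Serpinb2 cells had more Il1rn than Il1b, with 14 Il1b and 25 Il1rn UMIs in the control and 23 and 33 in the anti-Gr-1 library. Their ratios, 0.560 (0.269 to 1.12) and 0.697 (0.391 to 1.22), were the lowest of all gates, though both intervals reached 1. Basophil-like cells, which release type 2 cytokines, had 242 Il1b and 1 Il1rn UMIs in the control and 497 and 2 in the anti-Gr-1 library. Non-classical monocyte-like cells were at 39.9 (21.5 to 83.8) and, with 139 Il1b and 0 Il1rn UMIs, at least 46.3. Anti-Gr-1 type 1 dendritic cell-like cells had 2851 Il1b UMIs and 2 Il1rn UMIs.

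**Figure D2:**
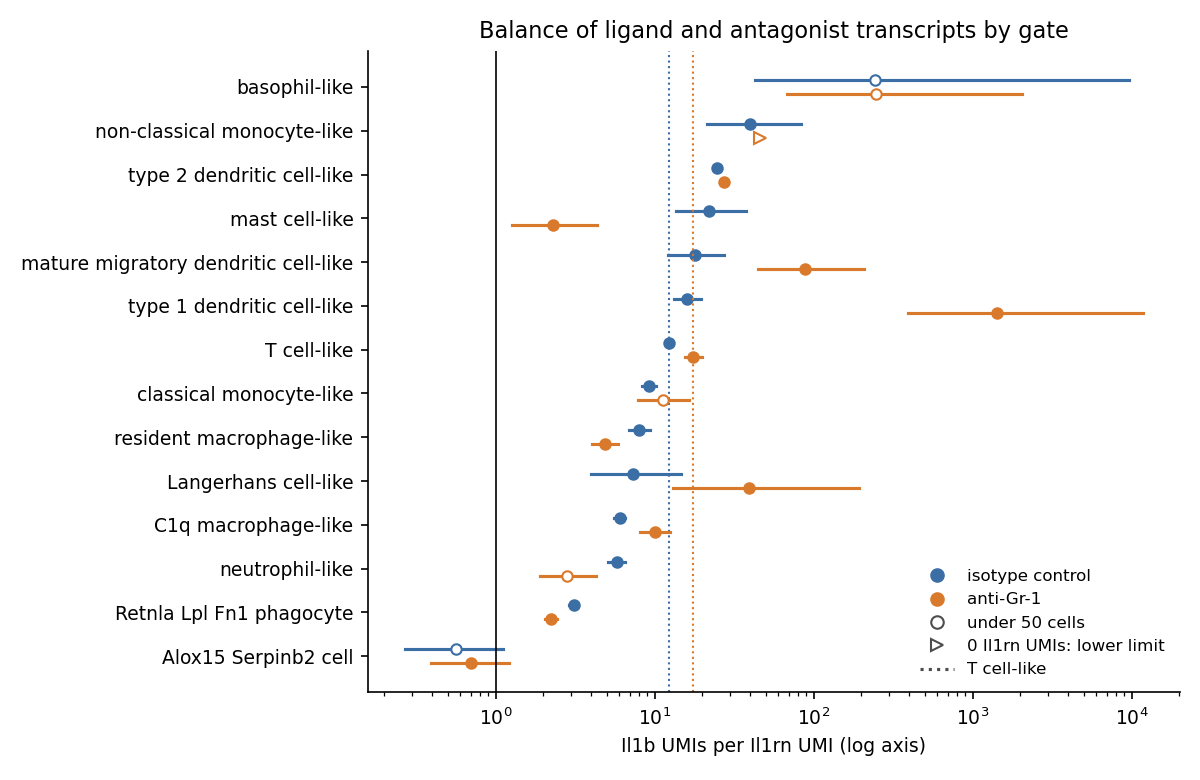
Il1b UMIs per Il1rn UMI by marker gate, on a log axis, for the control (blue) and anti-Gr-1 (orange) libraries with 95% exact conditional intervals. Dotted lines are the T cell-like ratios (12.4 and 17.5), the solid line marks equal numbers, open points have under 50 cells, and the arrowhead is a lower limit where Il1rn was 0. Retnla Lpl Fn1 phagocytes (3.10 and 2.24) lie to the left of both dotted lines and type 2 dendritic cell-like cells (24.6 and 27.2) to the right.

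Co-expression was next examined in single cells, with each cell thinned to 2000 UMIs so that depth was equal, and shallower cells left out. In Retnla Lpl Fn1 phagocytes, 50 of 301 control cells had both Il1b and Il1rn, 78 had Il1b only, 43 had Il1rn only and 130 had neither. In the anti-Gr-1 library the counts were 14, 29, 28 and 78 of 149 cells. At this depth, cells with the antagonist alone were thus nearly as many as cells with the ligand alone in the anti-Gr-1 phagocytes. Before thinning, phagocytes with both genes were the largest group in both libraries. Of 320 control phagocytes, 134 then had both, 85 Il1b only, 38 Il1rn only and 63 neither. Of 149 anti-Gr-1 phagocytes, the counts were 55, 34, 27 and 33. Thinned type 2 dendritic cell-like cells were different. There, 185 of 1671 control cells had both, 1043 had Il1b only and 34 had Il1rn only, and the anti-Gr-1 counts were 102, 588 and 17 of 978. Few of these cells carried the antagonist without the ligand.

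The share of cells with Il1rn was higher among cells with Il1b than among cells without it, in both libraries, in classical monocyte-like, resident macrophage-like, C1q macrophage-like and type 2 dendritic cell-like cells and in the phagocytes. It was not higher in mature dendritic cell-like cells, at 4% with and without Il1b in the control and 0% against 4.08% in the anti-Gr-1 library, nor in mast cell-like cells, at 0% against 0.629% and 0% against 0.901%. Langerhans cell-like cells with Il1b, 10 in each library, had no Il1rn, and neither did basophil-like cells with Il1b. In type 2 dendritic cell-like cells it was 15.1% (13.1 to 17.2%) with Il1b against 7.67% (5.37 to 10.6%) without in the control, and 14.8% (12.2 to 17.6%) against 5.90% (3.48 to 9.28%) in the anti-Gr-1 library. The intervals did not overlap in either library. In control Retnla Lpl Fn1 phagocytes it was 39.1% (30.6 to 48.1%) against 24.9% (18.6 to 32.0%), and in anti-Gr-1 phagocytes 32.6% (19.1 to 48.5%) against 26.4% (18.3 to 35.9%). The phagocyte intervals overlapped in both libraries, so their difference was not resolved at this depth. In the T cell-like background the shares were 9.34% against 1.98% and 6.19% against 0.610%, so joint detection was also present there.

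Macrophages and monocytes showed the same order. Control C1q macrophage-like cells had Il1rn in 32.3% (25.3 to 40%) of cells with Il1b and 17.3% (10.7 to 25.6%) of those without. Their anti-Gr-1 counterparts had it in 9 of 25 cells (36.0%) and 2 of 36 cells (5.56%). In resident macrophage-like cells the shares were 15.4% (9.06 to 23.8%) against 5.65% (3.32 to 8.89%) and 31.0% (15.3 to 50.8%) against 4.68% (2.04 to 9.01%). In control classical monocyte-like cells Il1rn was found in 28.0% (20.3 to 36.7%) of cells with Il1b and 10.3% (2.87 to 24.2%) of the others. Of these contrasts, only those of the resident macrophage-like cells had intervals apart. Neutrophil-like cells were the most often double, 44 of 68 control cells, while 20 had Il1b only, 2 Il1rn only and 2 neither. The frequencies of the 2 genes alone would give 43.3 double cells there if the genes were unrelated. Type 1 dendritic cell-like cells rarely had both. There, 3 of 91 control cells with Il1b and 0 of 137 anti-Gr-1 cells with Il1b had Il1rn, and 0 of 137 allows a share of up to 2.19%.

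**Figure D3:**
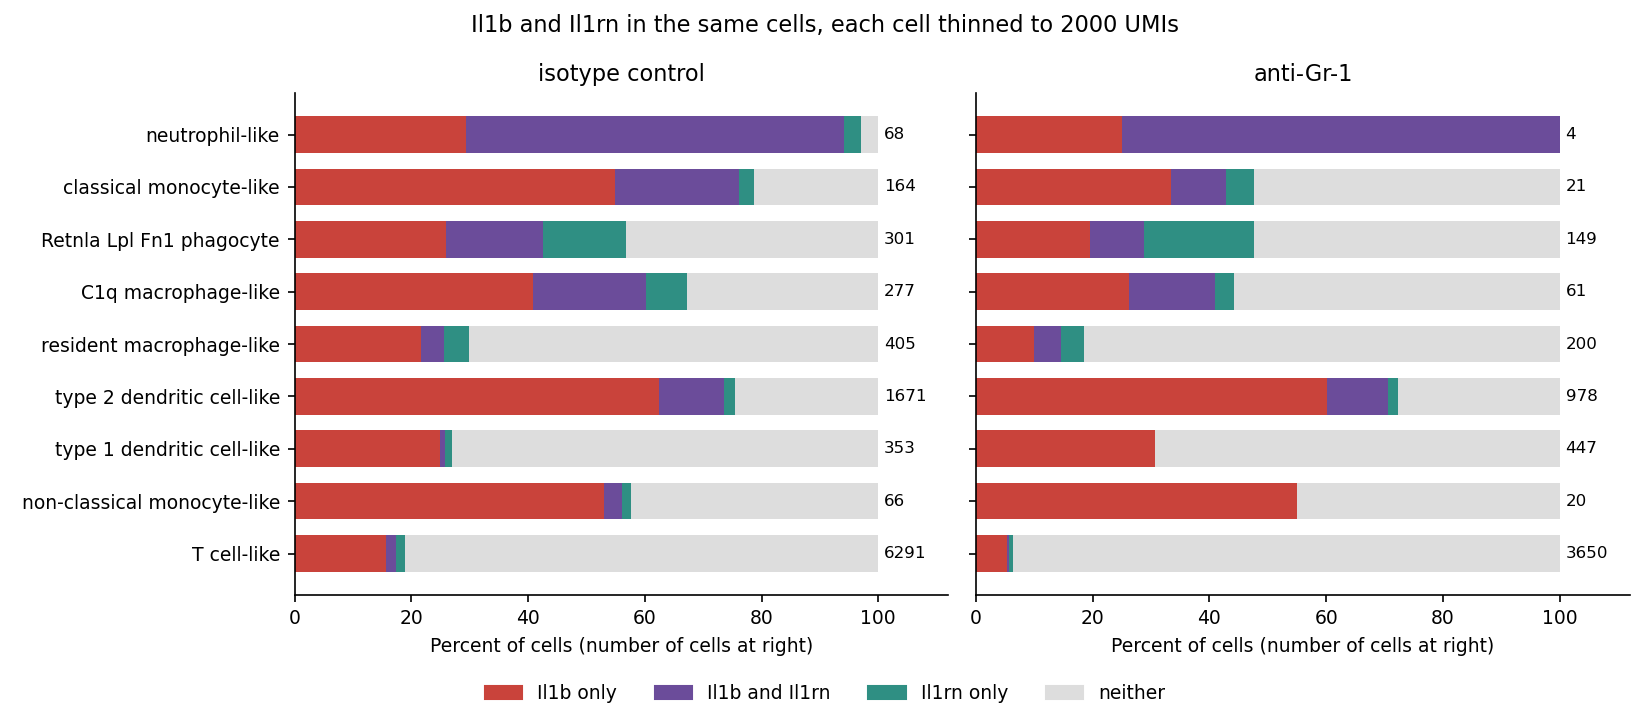
Percent of cells of a gate with Il1b only (red), Il1b and Il1rn (purple), Il1rn only (green) or neither (grey) after thinning each cell to 2000 UMIs, by library, with the number of cells at the right. Retnla Lpl Fn1 phagocytes show the widest green bar among the gates with at least 50 cells (43 of 301 and 28 of 149 cells), and type 1 dendritic cell-like cells are almost without purple (3 of 353 and 0 of 447 cells).

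The share of cells with Il1rn was also followed over the amount of Il1b in the thinned cell. In control C1q macrophage-like cells it was 17.3% with no Il1b UMI, 21.5% with 1 to 2, 35.3% with 3 to 9 and 47.1% with 10 or more. Control classical monocyte-like cells went through 10.3%, 19.4%, 27.5% and 34.9%. Type 2 dendritic cell-like cells ended lower, at 16.0% (12.7 to 19.8%) and 18.0% (13.5 to 23.3%) in the cells with 10 or more Il1b UMIs of the 2 libraries. Control phagocytes were flat up to 2 UMIs (24.9% and 25%) and reached 46.9% (34.3 to 59.8%) at 3 to 9 UMIs, whereas anti-Gr-1 phagocytes at 3 to 9 UMIs were at 23.8% (8.22 to 47.2%) of 21 cells. Over the cells of a gate the correlation of the 2 genes was weak, with Pearson coefficients of 0.225 and 0.0915 in phagocytes and 0.114 and 0.143 in type 2 dendritic cell-like cells (301, 149, 1671 and 978 thinned cells of shared libraries), and no test applies to it.

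**Figure D4:**
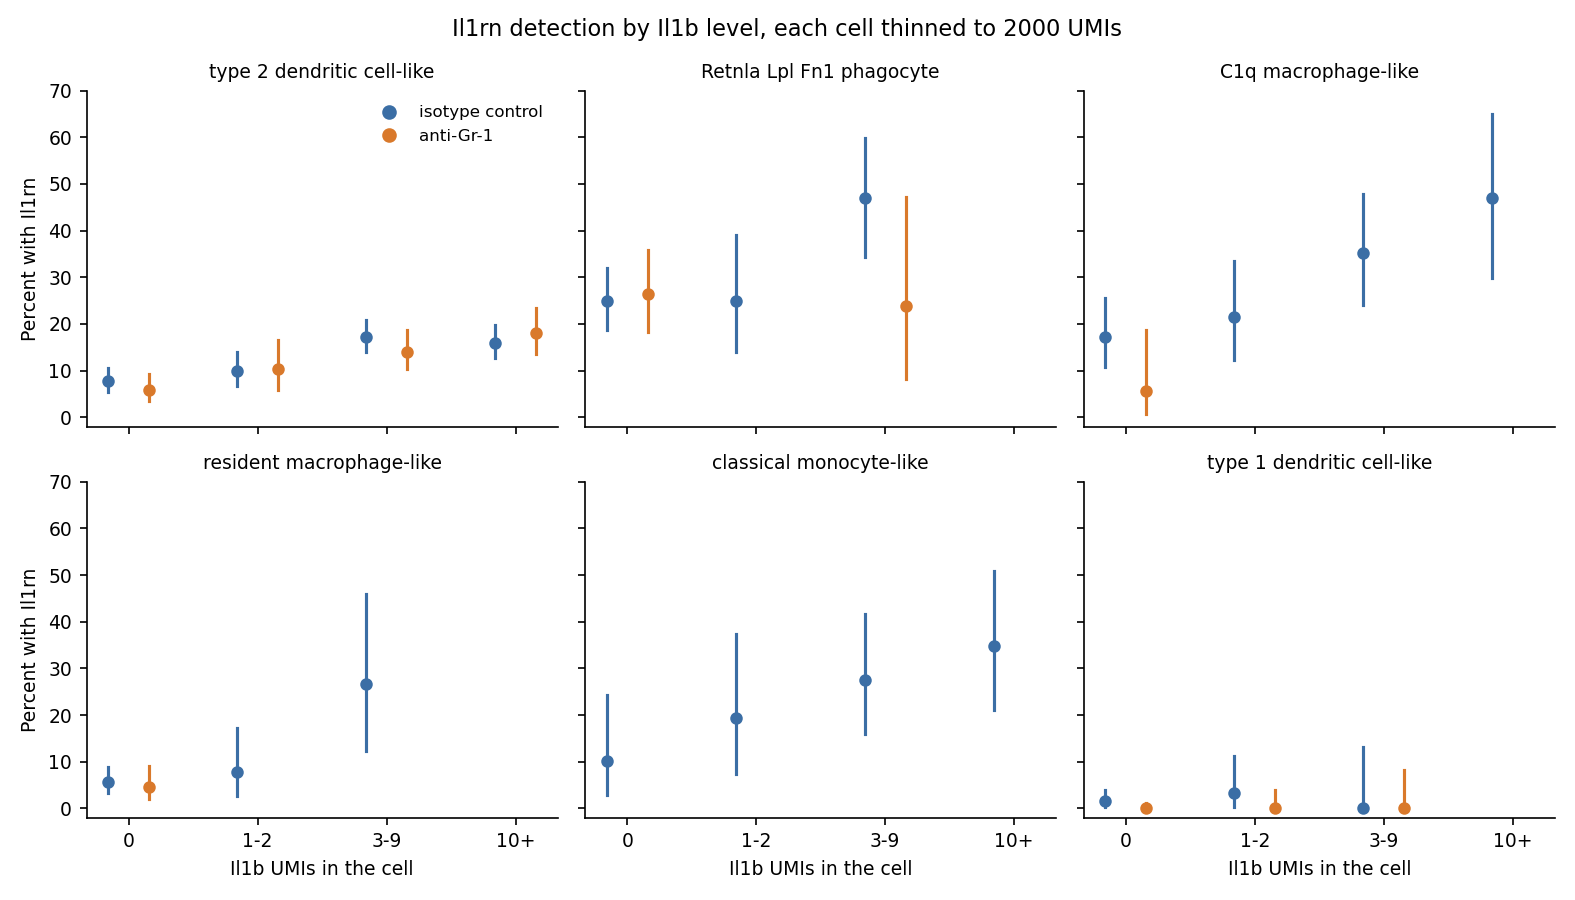
Percent of cells with an Il1rn UMI by the number of Il1b UMIs in the same cell, after thinning to 2000 UMIs, in 6 gates for the control (blue) and anti-Gr-1 (orange) libraries, with 95% Clopper-Pearson intervals and bins of at least 20 cells. In the control, C1q macrophage-like cells go from 17.3% to 47.1%, whereas type 2 dendritic cell-like cells stay at or below 17.2%.

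The Retnla Lpl Fn1 phagocytes bordered on the type 2 dendritic cell-like gate, so the 2 genes were also laid out over the cells between them, a view chosen after the data were seen. Retnla encodes a secreted protein of alternatively activated macrophages, Lpl a lipase and Fn1 fibronectin. Type 2 dendritic cell-like cells with none of these 3 genes detected had Il1rn in 6.25% (4.61 to 8.25%) of 736 thinned control cells and 7.74% (5.61 to 10.4%) of 530 anti-Gr-1 cells. With 1 gene detected the share was 14.3% and 15.8%, and with 2 genes 26.8% (21.9 to 32.0%) and 20.4% (14.4 to 27.5%). The phagocytes, by rule at 3 genes, were at 30.9% and 28.2%. Il1b went the other way, at 76.1% and 74.5% with 0 genes, 68.5% and 54.8% with 2 genes, and 42.5% and 28.9% in the phagocytes. The number of Il1b UMIs per Il1rn UMI accordingly went from 74.7 and 53.8 over 22.4 and 23.0 to 7.99 and 7.33 before the 3.10 and 2.24 of the phagocytes. Median depth of these 3 steps was between 10717 and 11547 UMIs in the control and between 14632 and 16487 in the anti-Gr-1 library.

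**Figure D5:**
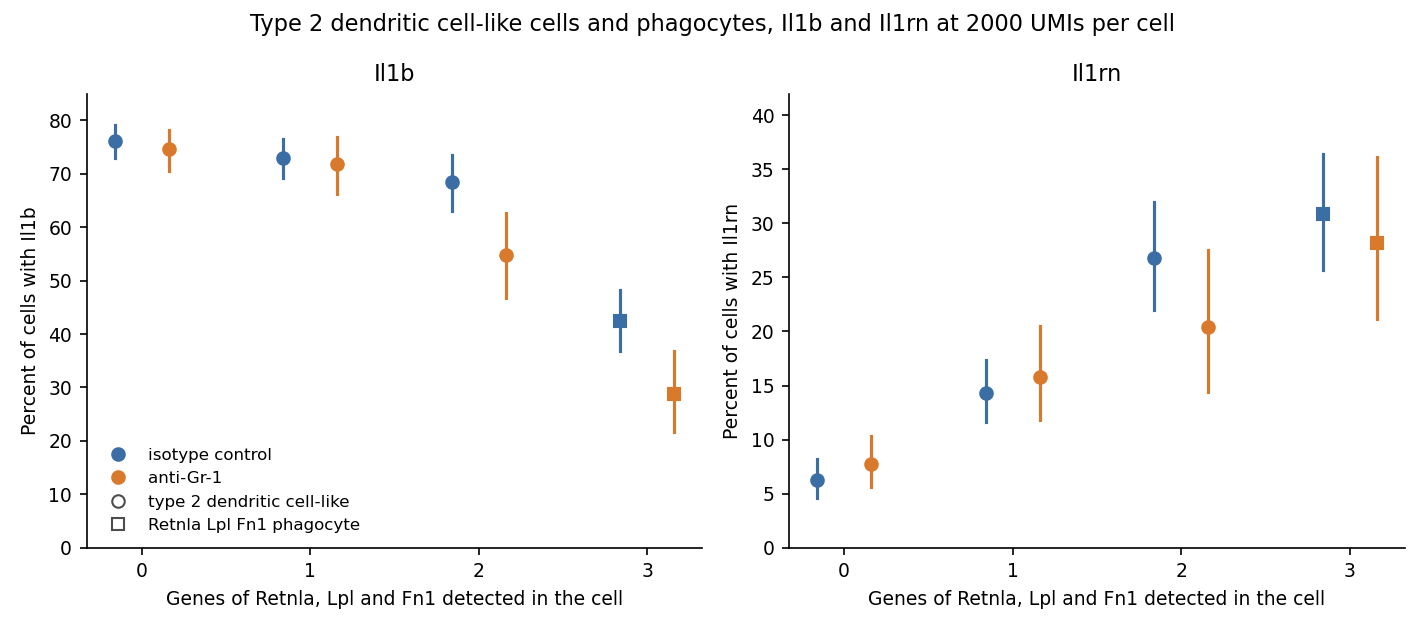
Percent of cells with Il1b (left) and Il1rn (right), thinned to 2000 UMIs, by how many of Retnla, Lpl and Fn1 had a UMI in the unthinned cell, with 95% Clopper-Pearson intervals. Circles are type 2 dendritic cell-like cells and squares the phagocytes. Il1b is lower and Il1rn higher with more of the genes detected, from 76.1% to 42.5% and from 6.25% to 30.9% in the control.

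Ear2, a ribonuclease gene of myeloid cells, split the type 2 dendritic cell-like gate by several fold for the antagonist and by little for the ligand. This split, too, was chosen after the data were seen. With Ear2, Il1rn was at 204 and 180 CPM (973 and 614 cells), and without it at 28.1 and 6.36 CPM (731 and 366 cells). Il1b was at 3235 CPM (3201 to 3269) with and 3184 CPM (3145 to 3224) without Ear2 in the control, and at 3273 CPM (3237 to 3309) and 2943 CPM (2898 to 2988) in the anti-Gr-1 library, where the intervals were apart. When Ear2 was called in thinned control cells the ligand was lower with Ear2, at 2935 CPM (2847 to 3025) against 3374 CPM (3292 to 3458), so its direction is not read. Depth hardly differed, with medians of 11048 and 15546.5 UMIs with Ear2 and 10713 and 14896.5 without. In cells split the same way after thinning, Il1rn was found in 21.7% (18.7 to 24.9%) of cells with Ear2 and 6.62% (5.13 to 8.40%) of those without in the control, and in 18.0% (14.6 to 21.7%) and 6.73% (4.71 to 9.28%) in the anti-Gr-1 library. The intervals were apart in both libraries. Clec10a, a lectin of type 2 dendritic cells, divided the gate less and in the other direction. Thinned cells with Clec10a had Il1rn in 10.4% and 7.01%, those without in 14.4% and 14.8%, and the control intervals overlapped.

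Within the phagocytes, cells with Cd209a, another lectin of type 2 dendritic cells, had a higher level of Il1b. The level of Il1b was 1346 CPM in 171 control cells with Cd209a and 541 CPM in 149 cells without, and 763 and 595 CPM in 69 and 80 anti-Gr-1 cells. The Il1rn level was higher with Cd209a in the control only, at 388 CPM (363 to 414) with Cd209a and 241 CPM (218 to 266) without in the control, and at 270.1 CPM (241 to 301) and 326 CPM (297 to 358) in the anti-Gr-1 library, where the intervals overlapped. By share of unthinned cells, Il1b was found in 75.4% and 60.4% of the control cells with and without Cd209a and in 59.4% and 60% of the anti-Gr-1 cells. Il1rn was found in 53.8% and 53.7%, and in 49.3% and 60%. The share intervals overlapped for both genes in both libraries. A UMI of Cd3e, Cd3g, Cd3d or Trdc was present in 167 of 320 control and 45 of 149 anti-Gr-1 phagocytes, although the gate allowed at most 1 of these genes. The part of such mixed barcodes in the levels is given below by leaving them out.

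The libraries differed in sex mix, with sex called by UMIs of Xist and of Y-linked genes. T cell-like cells called female and male numbered 2717 and 2440 in the control, and 713 and 2111 in the anti-Gr-1 library. Over all cells of a gate, a difference between the libraries cannot be told apart from this one. Between the libraries, type 2 dendritic cell-like cells were nearly level. The ratio of anti-Gr-1 to control was 0.981 (0.969 to 0.992) for Il1b and 0.887 (0.834 to 0.943) for Il1rn. Over all genes the median log2 ratio in this gate was -0.06. Il1b changed sides of 1 in 4 of the 12 alternatives tried, so no direction is read from it. Classical monocyte-like cells had the lowest Il1b ratio among the mononuclear phagocyte gates, 0.467 (0.420 to 0.519), with 3947 UMIs in 175 cells and 382 in 21 cells. It lay between 0.315 and 0.590 in 11 alternatives. Female cells were not among these, and gave 0.0139 (0.00035 to 0.0773) from 1599 UMIs in 55 cells and 1 UMI in 2 cells. The Il1rn ratio of the classical monocyte-like gate was 0.382 (0.261 to 0.542) but 1.02 in male cells. In the same libraries the T cell-like background had ratios of 0.437 for Il1b and 0.308 for Il1rn.

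Retnla Lpl Fn1 phagocytes had a ratio of 0.663 (0.626 to 0.701) for Il1b and 0.918 (0.839 to 1.004) for Il1rn. The Il1b ratio was just past 1.5-fold, as were 5.94% of the 7688 genes tested in this gate in the lower direction. Without cells holding any UMI of Cd3e, Cd3g, Cd3d or Trdc, the ratios were 0.492 and 0.624. With markers counted from 2 UMIs they were 0.947 (0.887 to 1.011) and 1.08 (0.977 to 1.198). With gates set on thinned cells they were 0.794 (0.621 to 1.007) and 1.68 (1.225 to 2.29). The direction for Il1rn thus turned with the gate. The Il1b ratio was below 1 in all 12 alternatives, but its interval included 1 under each of these gate settings. C1q macrophage-like cells had ratios of 0.731 (0.680 to 0.786) for Il1b and 0.440 (0.350 to 0.549) for Il1rn, and resident macrophage-like cells 0.618 (0.563 to 0.678) and 1.01 (0.808 to 1.27). The C1q Il1rn ratio was 0.686 in thinned cells, 0.706 without cells holding UMIs of those T cell genes and 0.908 (0.602 to 1.34) with gates set on thinned cells, so its size depends on the gate. The resident Il1rn ratio ranged from 0.581 without those cells to 1.74 with the T cell-like level subtracted. The Il1b ratio was 1.18 in C1q macrophage-like cells without UMIs of those T cell genes, and 1.28 in resident macrophage-like cells once the T cell-like level was subtracted.

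In type 1 dendritic cell-like cells the Il1b ratio was 0.894 (0.843 to 0.949), and it was 0.988 (0.930 to 1.05) without the single high control cell. The Il1rn ratio without that cell was 0.0541 (0.00614 to 0.221), from 21 UMIs in 355 cells and 2 UMIs in 447 cells. Both levels were under the T cell-like level of their library. Mature migratory dendritic cell-like cells had an Il1b ratio of 1.49 (1.33 to 1.68), which was 1.04 without the 1 anti-Gr-1 cell that held 223 of 710 UMIs. Mast cell-like cells, at 394 UMIs in 600 cells and 39 UMIs in 356 cells, had a ratio of 0.0871 (0.0610 to 0.121), both levels being under the T cell-like one.

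Other genes of the pathway were counted against the same fold. Of 57 genes in 8 lists, 43 had at least 50 UMIs over both libraries in Retnla Lpl Fn1 phagocytes, of which 1 was at least 1.5-fold higher and 0 lower, beside 1.70% higher and 5.94% lower among all 7688 genes of the gate. The higher gene was Cxcl1, a chemokine that draws neutrophils, at 20.04 and 51.9 CPM. None of the inflammasome genes passed: Nlrp3, the sensor, was at 41.9 and 45.8 CPM, and Casp1, the protease that matures the beta form, at 47.2 and 40.4 CPM. Nor did any brake, such as Tnfaip3, a deubiquitinase of NF-kB signalling, at 480.1 and 425 CPM. In type 2 dendritic cell-like cells 1 of 48 measured genes was lower (Cxcl1, 64 and 17 UMIs) and 0 were higher, beside 3.96% and 0.801% of all 10742 genes. Il1r2, the decoy receptor, was at 85.6 and 67.7 CPM there, and Il1r1, the signalling receptor, at 11.8 and 14.2 CPM.

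Type 1 dendritic cell-like cells differed, with 12 of 40 measured genes (30.0%) lower and 0 higher, beside 6.79% and 1.56% of 8780 genes. They included 6 of 7 measured brakes, such as Tnip3, an inhibitor of NF-kB (24.6 and 10.8 CPM), and Nfkbia, which holds NF-kB in the cytoplasm (479 and 306 CPM). The chemokine Cxcl2 was at 73.6 and 5.41 CPM. C1q macrophage-like cells had 11 of 39 genes (28.2%) lower and 3 higher, beside 13.9% and 4.39% of 5919 genes, whose median log2 ratio was -0.11. The higher ones were the cytokine Il6 (20.9 and 47.7 CPM) and the chemokines Cxcl1 (86.6 and 163 CPM) and Ccl3 (492 and 959 CPM). In resident macrophage-like cells 5 of 42 genes (11.9%) were lower and 0 higher, beside 6.06% and 2.30% of 7602 genes, among them Tnf (98.8 and 48.0 CPM) and the anti-inflammatory cytokine Il10 (49.9 and 23.2 CPM). The T cell-like gate itself had 17 of 49 genes (34.7%) lower, and 0 higher, beside 12.4% and 1.69% of 12908 genes, and the part of background RNA in these counts was not tested.

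Last, genes were ranked by how closely their level followed each member over 9 gates with at least 50 cells in both libraries, T cell-like included, that is 18 points that share 2 libraries. Pearson correlations were taken on log2(CPM + 5). For Il1b the nearest were Tnfsf9, a costimulatory ligand (0.892), Pim1, a kinase (0.878), Celf4 (0.873), Tnip3 (0.869) and Mefv, which encodes pyrin (0.869). For Il1rn they were Rilpl2 and Clec4e, a receptor for microbial glycolipids (both 0.952), Far1 (0.936), Lrp1, an endocytic receptor (0.933), and the chemokine Ccl9 (0.930). Il1b and Il1rn themselves correlated at 0.684. For Il1a, never above 9.62 CPM in these gates, the nearest gene was Fam168a at 0.756.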

How the data were processed

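The deposited files hold raw UMI counts for each gene in each cell barcode. Per the file headers, the authors ran Cell Ranger 4.0.0, and per the submitters' processing notes the build was mm10 (3′ v2 chemistry per the labels' protocols). Barcodes with at least 500 UMIs, 200 genes and under 10% mitochondrial UMIs were kept (19542 of 21311 in the isotype control library, 8047 of 9110 in the other). Doublets were scored with scrublet in scanpy 1.11.5. The automatic cutoff marked 32.5% of isotype control barcodes, above a limit of 25%, so the 3055 highest scores (0.8% per 1000 barcodes) were removed there, and 468 by the automatic threshold in the anti-Gr-1 library.

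UMIs were summed per gate. Intervals are 95% Poisson, Clopper-Pearson or exact conditional. Folds over all genes used those with at least 50 UMIs, and the calls were tested on simulated data. Positions are from GENCODE M21. The 3 genes, the marker and pathway lists and the alternatives were chosen with earlier results of these data known, and the number of markers a gate requires was set after the data were seen, without the values of the 3 genes. All 3 genes are given in each myeloid gate, as counts where a gate is small or the gene rare. Named pathway genes are up to 4 per list with the largest ratio, and a few chosen after their values were seen, and 5 genes per member are named for likeness. With 1 library per treatment no test was run, and 12 alternatives varied the doublet rule, gates, depth, mitochondrial limit, sex, T cell genes, cell weights and background. Antibody-derived tags were not used here. Python 3.11.15, numpy 2.4.6, scipy 1.17.1, pandas 2.3.3 and matplotlib 3.10.9 were used.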

Additional observations from a re-analysis of the deposited data

Results flagged for a closer look

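In type 2 dendritic cell-like cells the Il1b ratio of anti-Gr-1 to isotype control lay on opposite sides of 1 in the sexes, 0.758 (0.740 to 0.777) in female cells, called by Xist UMIs without Y-linked UMIs, and 1.07 (1.05 to 1.09) in male cells, called the opposite way. The female levels were 3455 CPM in 635 isotype control cells and 2619.7 CPM in 224 anti-Gr-1 cells, and the male levels 3188 CPM in 735 cells and 3415 CPM in 614 cells. The difference between the sexes was not tested, since each library pools mice of both sexes and has no replicate. Male cells also made up more of the anti-Gr-1 library than of the control. Il1rn in the same cells had ratios of 0.852 in female and 0.937 in male cells, so the antagonist did not show the opposite sides. In the T cell-like background the Il1b ratio was 0.291 in female and 0.496 in male cells. Type 1 dendritic cell-like cells had Il1b ratios of 0.668 (0.588 to 0.758) and 1.05 (0.961 to 1.15).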

How the results depend on the processing

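No paired analysis was possible because each treatment has 1 pooled library. Of 180 values of 16 results under 12 alternatives, 2 of them chosen after seeing the data (the same doublet rule in both libraries, and gates set on thinned cells), 16 crossed to the other side of 1, by the rule that the main interval leaves out 1. The main ratios of type 2 dendritic cell-like (DC2), phagocyte, type 1 dendritic cell-like (DC1) and mature cells are those given above. With markers counted from 2 UMIs, the Il1b ratio was 1.001 in DC2, 0.947 in phagocytes, 1.01 in DC1 and 0.642 in mature cells, and the Il1rn ratio 1.08 in phagocytes. In thinned cells Il1b was 0.994 in DC2 and 1.13 in DC1, and Il1rn 1.17 in phagocytes. In female cells Il1b was 0.758 in DC2, 0.599 in phagocytes and 0.0116 in mature cells, and Il1rn 0.756 in phagocytes. In male cells Il1b was 1.07 in DC2 and 1.05 in DC1, and Il1rn 0.831 in phagocytes and 1.02 in classical monocyte-like cells. Without UMIs of Cd3e, Cd3g, Cd3d or Trdc Il1b was 0.963 in DC2, 0.492 in phagocytes and 1.18 in C1q macrophage-like cells, and Il1rn 0.624 in phagocytes. With each cell of equal weight Il1b was 0.997 in DC2. With the T cell-like level subtracted Il1b was 1.06 in DC2, 0.827 in phagocytes and 1.28 in resident macrophage-like cells, and Il1rn 1.09 in DC2. With gates set on thinned cells Il1b was 1.07 in DC2, 0.794 in phagocytes, 1.25 in resident macrophage-like cells, 1.003 in DC1 and 0.807 in mature cells, and Il1rn 1.68 in phagocytes. The share of thinned cells with Il1b that had Il1rn was 50% in isotype control phagocytes in male cells, and with gates set on thinned cells 27.5% in these phagocytes and 9.94% in anti-Gr-1 DC2. The cause was not tested. Depth limits the anti-Gr-1 neutrophil-like (4 cells), classical (21) and non-classical (20) monocyte-like gates, and Il1a everywhere.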

Other observations

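Cells that met no gate numbered 4278 (isotype control) and 1330 (anti-Gr-1), at medians of 2792.5 and 7915.5 UMIs. They held 18.7% and 11.6% of all Il1b UMIs and 24.1% and 15.8% of all Il1rn UMIs, at 9.99 and 13.2 Il1b UMIs per Il1rn UMI. Among them, 4.72% and 1.79% of thinned cells without Il1b had Il1rn, against 19.3% and 16.6% of those with Il1b. Cells that met several gates (260 and 70) had Il1b at 1552 and 737 CPM and Il1rn at 133 and 71.9 CPM.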
